A study of Mus musculus with 25 samples.

Results

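The glutathione peroxidases are a family of 8 mouse genes, Gpx1 to Gpx8, and all 8 were found by symbol among the 24358 genes of a sperm RNA-seq table. Every member had a valid estimate in each condition, and 7 of the 8 reached at least 10 estimated counts in at least 1 condition. The exception was Gpx2. The table covers 5 conditions of 5 libraries each, made from sperm that had swum out of cut cauda epididymides of 14-week-old males. C57.CTL.F1 and FVB.CTL.F1 are C57BL/6J and FVB/N sons of mothers that received the corn oil vehicle by mouth on embryonic days 9 to 19. C57.D300.F1 and FVB.D300.F1 are sons of mothers that received di(2-ethylhexyl)phthalate (DEHP), a plasticiser, at 300 mg/kg/day over the same days. C57.D300.F2 are sons of exposed C57BL/6J F1 males and unexposed females, and no vehicle lineage of that generation was analysed here. In the text these conditions are called C57 vehicle (C57.CTL.F1), C57 DEHP F1 (C57.D300.F1), C57 DEHP F2 (C57.D300.F2), FVB vehicle (FVB.CTL.F1) and FVB DEHP (FVB.D300.F1). The 10 libraries of C57 vehicle and C57 DEHP F1 carry a label that marks them as re-analysed, and the other 15 do not, so each comparison between these sets also compares library sets.

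Each condition has 1 estimated count per gene that combines its 5 libraries. No spread between libraries was measured, no p-value is given, and no difference below has a replicate check. The only error beside a value is the model SD, the square root of the variance that Cuffdiff's model assigned to the count. Counts are not divided by gene length. They summed to between 6921688 and 8602900 per condition, and 3 counts were taken as the floor of detection, which covers counting error only. A gene was called higher or lower where the log2 ratio of the counts, with 1 added to each, reached 2 and the gene had at least 10 counts in a compared condition.

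Glutathione peroxidases reduce hydrogen peroxide and lipid hydroperoxides with the help of a thiol, usually glutathione. In the classical enzymes the reactive residue is selenocysteine, which is encoded by a TGA codon that is otherwise a stop. In the other members it is cysteine. The male tract is known for several of them. GPX4 is made in spermatids and ends up in the mitochondrial capsule of the sperm midpiece. GPX5 is secreted by the epididymal epithelium under androgen control and coats sperm in the lumen. GPX3 is the extracellular enzyme of plasma and is also made in the epididymis.

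The codon of the reactive residue divides the family, and the coding sequence around it is shown for all members because it separates Gpx5 from the other abundant members in these preparations. The sequences were read from GENCODE M21 transcripts on GRCm38, the mm10 assembly. Each is 33 bases of coding sequence, 5′ to 3′, with the codon in capitals.
Gpx1: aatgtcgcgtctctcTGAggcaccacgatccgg
Gpx2: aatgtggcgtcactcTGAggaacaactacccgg
Gpx3: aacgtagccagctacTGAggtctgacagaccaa
Gpx4: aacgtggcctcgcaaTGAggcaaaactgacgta
Gpx5: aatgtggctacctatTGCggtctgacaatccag
Gpx6: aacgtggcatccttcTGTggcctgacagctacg
Gpx7: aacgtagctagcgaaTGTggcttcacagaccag
Gpx8: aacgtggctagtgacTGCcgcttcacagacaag

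TGA stands in 4 members, Gpx1 to Gpx4, where the annotation marks it as selenocysteine. Gpx5 and Gpx8 have TGC and Gpx6 and Gpx7 have TGT, both of which encode cysteine. In Gpx3, Gpx5 and Gpx6 the codon is number 73, of 226 residues in Gpx3 and of 221 in Gpx5 and Gpx6. These are also the most alike members in protein sequence. Gpx3 and Gpx6 shared 66.5% of aligned residues, Gpx3 and Gpx5 65.2%, and Gpx5 and Gpx6 63.8%. The cytosolic pair Gpx1 and Gpx2 shared 63.2%, and the endoplasmic reticulum pair Gpx7 and Gpx8 48.4%.

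Gpx4 lies on chr10:80047166-80056439, plus strand, with 7 exons in its longest transcript. Its estimated count was 1618 in C57 vehicle, 1532 in C57 DEHP F1, 1369 in C57 DEHP F2, 1105 in FVB vehicle and 1092 in FVB DEHP. The values spanned 1.48-fold, the narrowest range of the 7 members with at least 10 counts, and Gpx4 was called in no comparison. The model SD was larger than the count in every condition, at 2499 in C57 vehicle and 1707 in FVB DEHP. Relative to the count it was 5.37 to 6.17 times the median of the 200 genes nearest in count. This figure lay between 1.53 and 2.30 for Gpx3 and between 0.985 and 1.37 for Gpx1. For Gpx6, Gpx7 and Gpx8 it lay between 0.959 and 1.35. The gene-level value joins the mitochondrial, cytosolic and nuclear transcripts of Gpx4. How reads shared with the annotated pseudogene Gpx4-ps2 were assigned is not given in the sources used here.

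The estimated count of Gpx4 varied less than those of other spermatid genes, though the model SD of Gpx4 exceeded the count in every condition. All 13 genes of a spermatid and sperm list, among them the protamine Prm2, the tail protein Odf1 and the midpiece protein Smcp, were above the floor in every condition. Their summed count was 107230 in C57 vehicle, 90790 in C57 DEHP F1, 36729 in C57 DEHP F2, 8922 in FVB vehicle and 10735 in FVB DEHP. In FVB vehicle against C57 vehicle all 13 were called lower, with a median log2 ratio of -3.50, as were 8.88% of all genes. The log2 ratio of Gpx4 in that comparison was -0.55, and the median of all genes was -0.03. The Gpx4 difference of -513 counts was smaller than its model SD of 3031. This comparison also compares the library sets. Within the 15 libraries not marked as re-analysed, FVB vehicle against C57 DEHP F2 called 7 of the 13 lower, against 2.50% of all genes. Their median log2 ratio was -2.07, and that of Gpx4 was -0.31, a difference of -264 counts with a model SD of 2559. Strain, generation and exposure of the lineage all differ there. In bulk RNA, fewer cells of a type and less RNA per cell cannot be told apart.

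Gpx3 (chr11:54902453-54910377, plus strand, 5 exons) was the most abundant member in all conditions. Its count was 49995 in C57 vehicle, 47029 in C57 DEHP F1, 47313 in C57 DEHP F2, 40117 in FVB vehicle and 29615 in FVB DEHP. The model SD ranged from 19737 to 43488. The range was 1.69-fold and Gpx3 was called in no comparison. Per kilobase of its longest transcript it ranked between place 4 and place 15 among the 19815 to 19831 genes with a known length. Its level per kilobase was 16.9 to 22.7 times that of Gpx4.

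**Figure D1:**
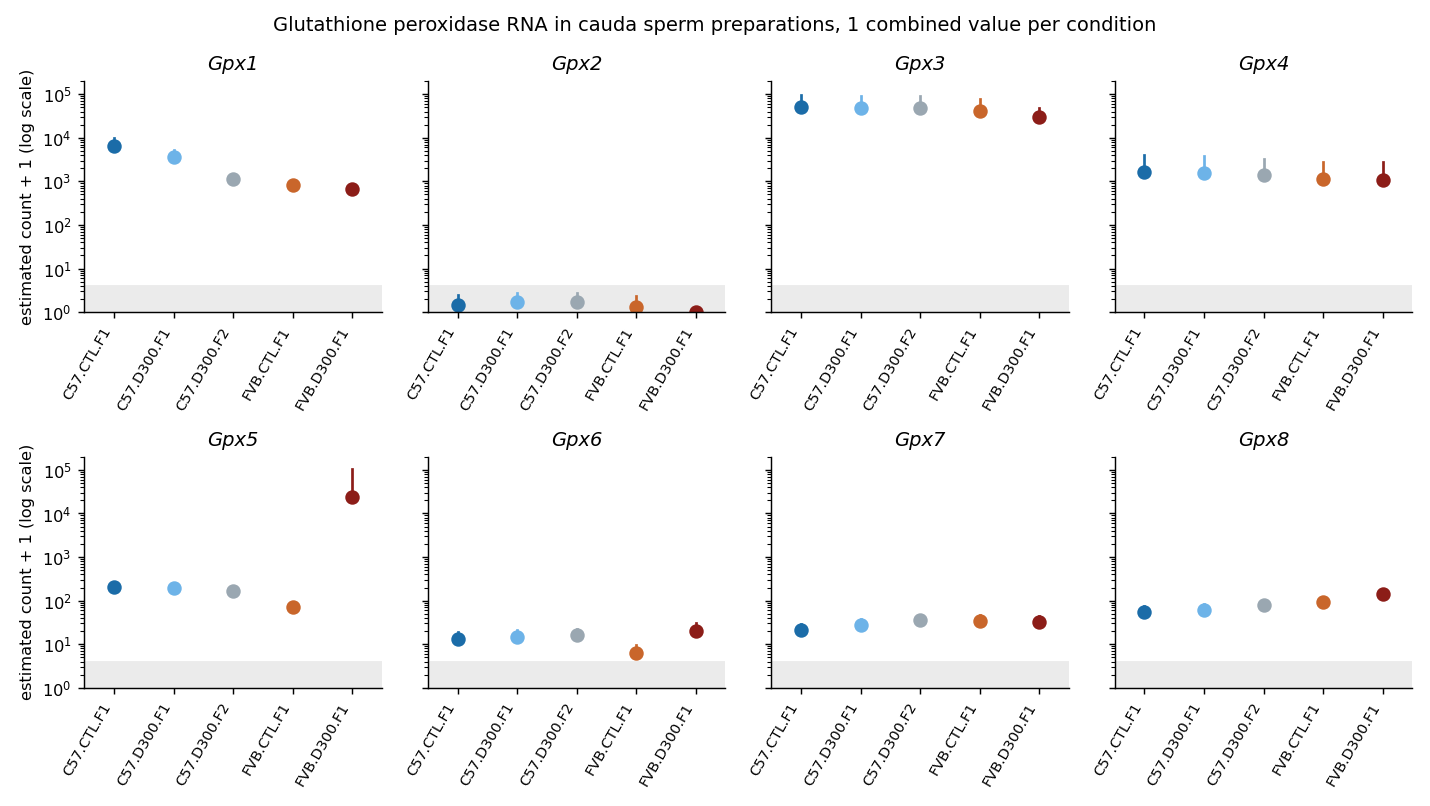
Estimated count plus 1 on a log axis for the 8 genes in the 5 conditions. Each point is the combined value of 5 libraries, the line above it reaches 1 model SD (not a spread between libraries), and the grey band in the panels marks counts up to the floor of 3. Gpx5 lies between 71.4 and 202 in 4 conditions and at 24121 in FVB DEHP, and Gpx2 is inside the band throughout.

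Gpx5 (chr13:21286429-21292731, minus strand, 5 exons) differed most among conditions. Its count was 202 in C57 vehicle with a model SD of 51.6, 199 in C57 DEHP F1 (model SD 50.9), 162 in C57 DEHP F2 (model SD 41.9) and 71.4 in FVB vehicle (model SD 20.8). In FVB DEHP it was 24121, with a model SD of 80054. The study had already named Gpx5, from these samples, among the RNAs that were higher in FVB DEHP than in FVB vehicle. The FVB/N pair thus holds both the lowest and the highest value. FVB DEHP against FVB vehicle gave a log2 ratio of 8.38, the 6th highest of 16471 genes tested. In this comparison 0.662% of genes were called higher and 0.0182% lower, and 1 of the 7 tested members, Gpx5, was called higher and 0 lower. The difference of 24050 counts was smaller than its model SD of 80054. The SD relative to the count was 3.32 in FVB DEHP, which was 7.61 times the median of genes with similar counts, against 1.01 to 1.06 times in the other 4 conditions.

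In C57BL/6J the corresponding log2 ratio of Gpx5 was -0.02, and it ran from -0.03 to 0.13 over the scalings and pseudocounts tried. C57 DEHP F1 against C57 vehicle called 0.0357% of genes higher and 0.256% lower, and 0 of 7 tested members either way. The log2 ratio in FVB/N minus that in C57BL/6J was 8.40 for Gpx5, the 17th highest of 17556 genes. For this difference between strains 0.997% of genes were called higher and 0.228% lower, against 1 and 0 of 7 members. It rests on 1 value per condition and was not tested. Among DEHP lineages, Gpx5 had a log2 ratio of 6.91 in FVB DEHP against C57 DEHP F1. The difference of 23922 counts was smaller than its model SD of 80054. FVB vehicle against C57 vehicle gave -1.49, at rank 2212 from the lowest of 17086 genes tested. That value was not called, though the difference of -131 counts exceeded its model SD of 55.6. Both of these comparisons between strains also compare the library sets.

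The 5 genes with a pattern most like Gpx5, by Euclidean distance of centred log2 counts over the 5 conditions among 11237 genes, were Defb12, Cst12, Lcn10, Lcn8 and Clpsl2, at distances of 0.75 to 1.33. Defb12 had counts of 7.57, 7.21, 8.38, 2.88 and 719 from C57 vehicle to FVB DEHP. They were chosen by pattern, so their low counts in the other conditions are no separate result.

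Of 20 epididymal secreted genes, 16 of the 19 tested in FVB DEHP against FVB vehicle were called higher, against 0.662% of all genes. Of the 19, 11 passed the minimum of 10 counts through FVB DEHP alone and could not have been called lower. Of the 8 that reached 10 counts in FVB vehicle, 5 were called higher and 0 lower, with a median log2 ratio of 4.11. The study had singled out Lcn5, Lcn8, Lcn9, Spint4, Spag11b and Defb30 on these samples, together with Gpx5 itself. The list is therefore not independent evidence of a direction. Lcn5, a retinoid-binding lipocalin, had 9.18 counts in FVB vehicle and 6686 in FVB DEHP. Lcn8 had 1.32 and 1273, Lcn9 2.52 and 1355, and the beta-defensin Defb30 7.18 and 1829. The 3 tested genes not called were Crisp4, Rnase9 and Adam7, the last with 37310 and 53922 counts. Crisp1 had 108274 counts in C57 vehicle and 219328 in FVB DEHP, and its estimate failed in the other 3 conditions. The sum of the other 19 genes was 24211 in C57 vehicle, 28323 in C57 DEHP F1, 30840 in C57 DEHP F2, 38495 in FVB vehicle and 77043 in FVB DEHP, and most of it was Adam7. Between 6 and 7 of the 20 genes were at or under the floor in the other 4 conditions and 0 in FVB DEHP. Of the blood genes, 3 were called higher in the same comparison, all globins. Hba-a2 had 411 and 2213 counts, Hbb-bs 453 and 2276, and Hbb-b1 201 and 890. The summed count of the 8 blood genes found was 2035 in FVB vehicle and 7194 in FVB DEHP. Whether RNA of epididymal or blood cells had a part in the Gpx5 value was not tested.

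Gpx6 is the neighbour of Gpx5 on chromosome 13. It lies at chr13:21312125-21319624 on the plus strand, 19.4 kb from Gpx5, and the genes point away from each other. In rodents it is known from the olfactory epithelium. Its count was 12.3 in C57 vehicle, 13.9 in C57 DEHP F1, 15.1 in C57 DEHP F2, 5.27 in FVB vehicle and 19.0 in FVB DEHP. As with Gpx5, FVB vehicle had the lowest and FVB DEHP the highest value. The counts are small, and FVB DEHP exceeded C57 DEHP F1 by 5.11 counts, less than the model SD of 12.1. The log2 ratio within FVB/N was 1.68, short of a call, and the difference of 13.8 counts exceeded its model SD of 10.9. The nearest genes of the table on either side did not share the pattern of Gpx5. Trim27, 91.7 kb beyond Gpx5, had 387 counts in FVB vehicle and 384 in FVB DEHP. Beyond Gpx6, Zscan12 had 79.9 and 77.0 counts and Zkscan3 had 251 and 261. The other 3 neighbours, the olfactory receptor genes Olfr1368, Olfr263 and Olfr1367, were under the floor in all conditions.

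**Figure D2:**
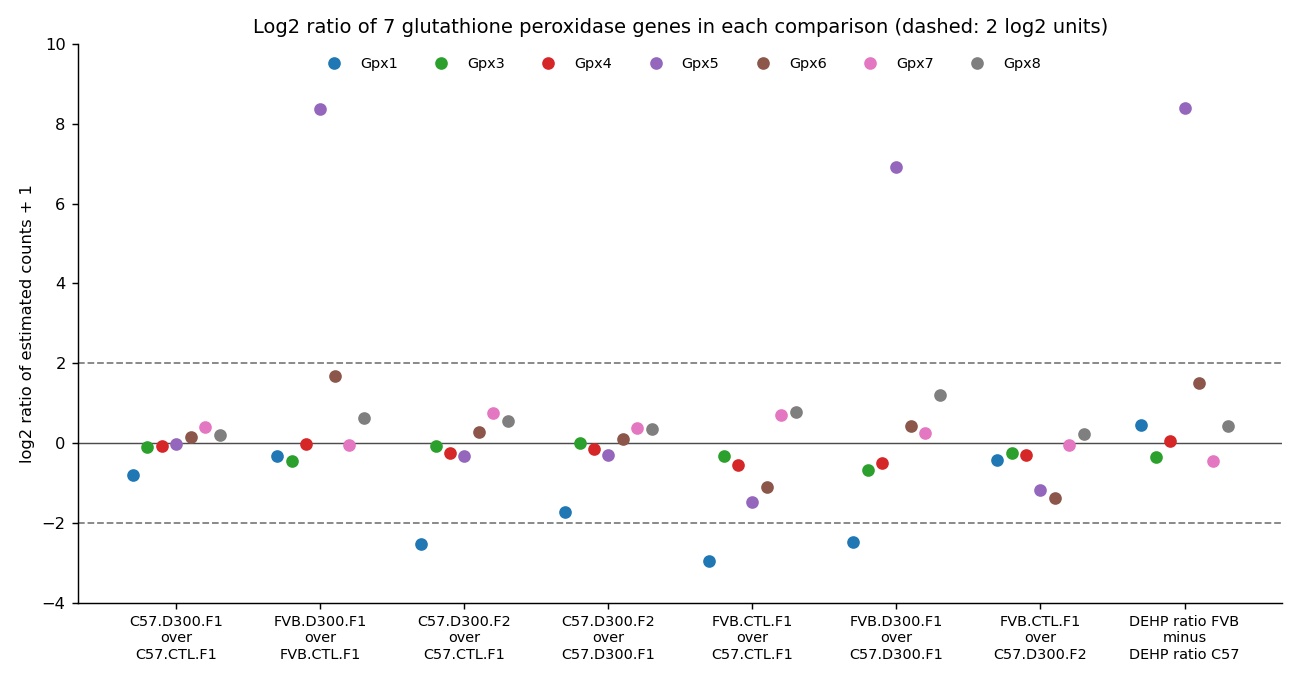
Log2 ratio of estimated counts plus 1 for the 7 members that reached 10 counts, in the 7 comparisons and for the DEHP ratio in FVB/N minus that in C57BL/6J. Each point is 1 gene and the dashed lines mark 2 log2 units. Gpx5 lies above the upper line at 8.38, 6.91 and 8.40, and Gpx1 lies below the lower line at -2.53, -2.96 and -2.49.

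Gpx1 (chr9:108338903-108340343, plus strand, 2 exons), the ubiquitous cytosolic enzyme that is abundant in liver and red cells, differed between the library sets. Its count was 6408 in C57 vehicle with a model SD of 3538, 3695 in C57 DEHP F1 (model SD 1506), 1110 in C57 DEHP F2 (model SD 277), 824 in FVB vehicle (model SD 199) and 655 in FVB DEHP (model SD 155). The 2 conditions of re-analysed libraries hold the higher values, and the other 3 lie at or below 1110. Gpx1 was called lower in 3 of the 4 comparisons between the library sets and in 0 of the 3 within a set. In both comparisons between strains, library set and strain cannot be told apart. In the comparisons of C57 DEHP F2 with the F1 conditions, library set and generation cannot be told apart, and against C57 vehicle the exposure of the lineage differs as well.

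C57 DEHP F2 had 5.77-fold less Gpx1 than C57 vehicle, a log2 ratio of -2.53. In this comparison 0.584% of genes were called higher and 3.61% lower, and of 7 tested members 0 and 1. The difference of -5297 counts exceeded its model SD of 3549. Against C57 DEHP F1 the log2 ratio was -1.73 and Gpx1 was not called. That comparison called 0.333% of genes higher and 3.30% lower, and 0 members either way. FVB vehicle had 7.77-fold less Gpx1 than C57 vehicle, a log2 ratio of -2.96. In that comparison 1.44% of genes were called higher and 8.88% lower, and of the members 0 and 1. FVB DEHP had 5.64-fold less than C57 DEHP F1, a log2 ratio of -2.49, with 2.65% of genes called higher and 7.67% lower, and of the members 1 (Gpx5) and 1 (Gpx1). FVB vehicle against C57 DEHP F2 compares both backgrounds within the 15 libraries not marked as re-analysed, though generation and exposure of the lineage also differ. There the log2 ratio of Gpx1 was -0.43. This comparison called 0.707% of genes higher and 2.50% lower, and 0 members.

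Liver genes had their high values in the same conditions as Gpx1. The summed count of 15 genes made mainly by hepatocytes was 264102 in C57 vehicle, 216530 in C57 DEHP F1, 6079 in C57 DEHP F2, 2714 in FVB vehicle and 1986 in FVB DEHP, and no gene of the list was at or under the floor. All 15 were called lower in each of the 4 comparisons between the library sets, including C57 DEHP F2 against C57 DEHP F1, in which Gpx1 was not called. Their median log2 ratio was -5.58 in C57 DEHP F2 against C57 vehicle, -5.18 against C57 DEHP F1, and -7.56 in both comparisons between strains. Ttr, the thyroxine carrier, had 38822 counts in C57 vehicle, 394 in C57 DEHP F2 and 101 in FVB vehicle. Cyp3a11, a drug-metabolising cytochrome, had 13468, 133 and 35.5. In the 3 comparisons in which Gpx1 was called, every liver gene had a log2 ratio further from 0 than Gpx1, the nearest being the fibrinogen chain Fga at -4.86, -3.41 and -3.32. The spermatid and sperm list also had its highest sums in C57 vehicle and C57 DEHP F1, at 107230 and 90790. Its median log2 ratio was -1.19, -3.50 and -2.78 in the same 3 comparisons. Of its 13 genes, 0, 13 and 9 were called lower there, against 3.61%, 8.88% and 7.67% of all genes. Whether liver or sperm RNA had a part in the Gpx1 values was not tested.

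The 5 genes with a pattern most like Gpx1 were Pter, Cd302, Gsto1, Scp2 and Errfi1, at distances of 0.29 to 0.43. Scp2, the sterol carrier protein, had 10452 counts in C57 vehicle, 8586 in C57 DEHP F1, 2024 in C57 DEHP F2, 1532 in FVB vehicle and 1407 in FVB DEHP. Gsto1, a glutathione transferase of the omega class, went from 214 in C57 vehicle to 24.5 in FVB DEHP. Being chosen by pattern, these genes give no separate result.

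**Figure D3:**
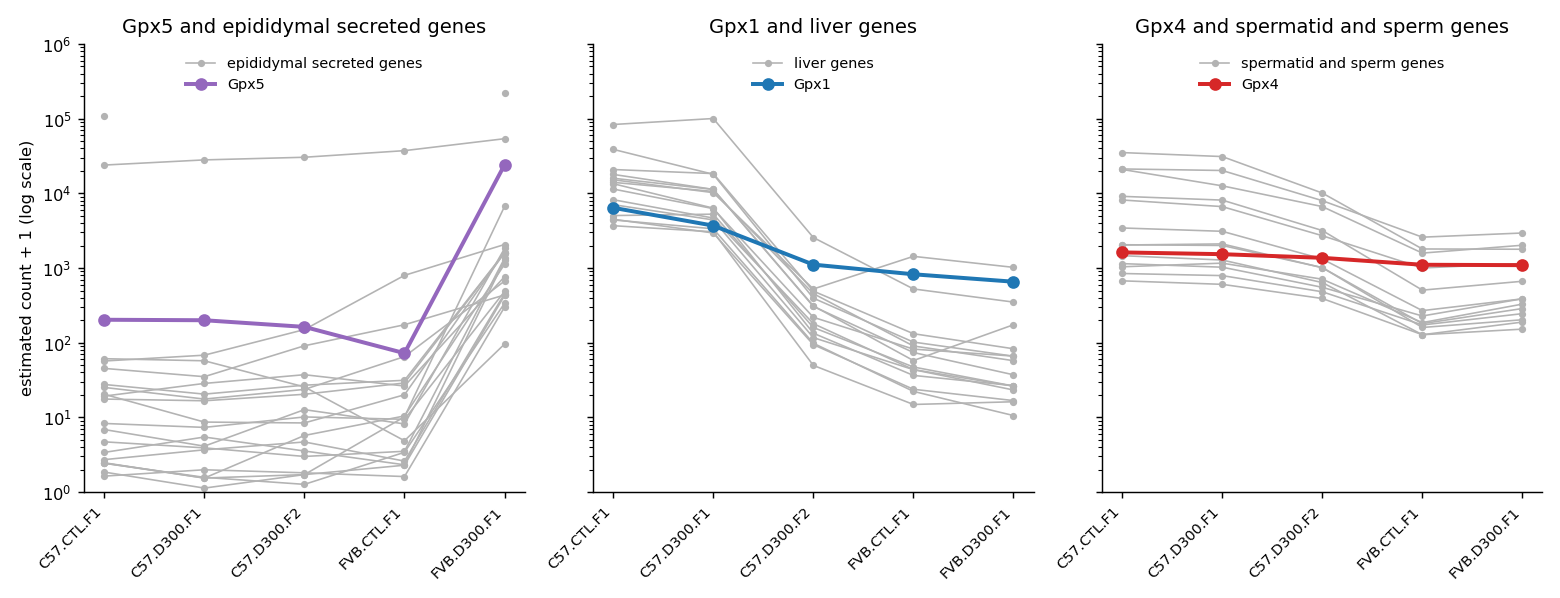
Estimated count plus 1 on a log axis across the 5 conditions for Gpx5 with the epididymal list, Gpx1 with the liver list and Gpx4 with the spermatid list. Each grey line joins the values of 1 list gene, and single grey points are Crisp1, which has values in 2 conditions. Gpx5 and most epididymal genes peak in FVB DEHP, liver genes are high in the first 2 conditions together with Gpx1, and Gpx4 spans 1.48-fold while the sperm genes drop.

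Gpx2 (chr12:76792333-76795554, minus strand), the enzyme of gut and other epithelia, was not detectable at this depth. Its estimated counts were 0.490, 0.675, 0.666, 0.307 and 0.00 in the order C57 vehicle, C57 DEHP F1, C57 DEHP F2, FVB vehicle and FVB DEHP, all under the floor of 3. It overlaps Fntb on the opposite strand, and a processed pseudogene, Gpx2-ps1, is a separate row of the table. No ratio is given for it.

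Gpx7 and Gpx8 are peroxidases of the endoplasmic reticulum that pass oxidising power on to protein disulfide isomerases. Gpx7 (chr4:108400390-108406961, minus strand) had 19.9 counts in C57 vehicle, 26.4 in C57 DEHP F1, 34.4 in C57 DEHP F2, 33.3 in FVB vehicle and 31.8 in FVB DEHP, a range of 1.73-fold. Gpx8 (chr13:113042753-113046410, minus strand) had 53.3, 61.4, 78.4, 91.8 and 142 counts in the same order, a range of 2.67-fold. The order of Gpx8 is opposite to that of Gpx1, with the lowest value in C57 vehicle and the highest in FVB DEHP. Neither gene was called in any comparison, and the highest log2 ratio was 1.20 for Gpx8 in FVB DEHP against C57 DEHP F1. Gpx8 lies within Cdc20b on the opposite strand. Mapping kept the strand of reads, but how the counting treated it is not given in the sources used here. The gene most like Gpx8 in pattern was Ptgds, which makes prostaglandin D2 in the male tract, with 11805 counts in C57 vehicle and 28918 in FVB DEHP and a distance of 0.12. It was followed by Snord49a, D830005E20Rik, Soat1 and Enpp5. Being chosen by pattern, these genes give no separate result either. For Gpx3 the nearest were Wwtr1, Rbm43, Rnf185, Fam175b and Rap1b, and for Gpx4 they were Sbf2, Fbxo32, Ecsit, Ddx20 and Pitrm1, all within 0.13.

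The make-up of the family was compared after dividing counts by the length of the longest transcript. Gpx3 held 80.1% of the family sum in C57 vehicle, 85.0% in C57 DEHP F1, 91.9% in C57 DEHP F2, 92.5% in FVB vehicle and 53.3% in FVB DEHP. Gpx1 held 15.3%, 9.93%, 3.21%, 2.83% and 1.75%, and Gpx4 between 3.15% and 4.44%. Gpx5 held 0.157% to 0.343% in 4 conditions and 41.3% in FVB DEHP. RNAs of the selenocysteine enzymes thus made up nearly all of the family sum where Gpx5 was low. RNA of Gpx5, a cysteine enzyme, came next to that of Gpx3 in FVB DEHP. All shares in FVB DEHP rest on a Gpx5 count of 24121 with a model SD of 80054. The sum of the family per kilobase was 27208 in FVB vehicle and 34873 in FVB DEHP, while without Gpx5 it was 27165 and 20463. Most of the latter 2 sums was Gpx3, whose difference of -10502 counts was smaller than its model SD of 42279.

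In C57 vehicle the order of the levels per kilobase was Gpx3, Gpx1, Gpx4, Gpx5, Gpx8, Gpx7, Gpx6 and Gpx2, at 31365, 5977, 1627, 121, 51.2, 15.4, 9.19 and 0.459. The neighbours Gpx3 and Gpx1, Gpx4 and Gpx5, and Gpx7 and Gpx6 did not differ by more than the model SD of their difference. In FVB vehicle Gpx4 stood above Gpx1, at 1111 and 769 per kilobase, by less than the model SD. Gpx8 stood above Gpx5 there, at 88.1 and 42.7, by more than it. In FVB DEHP Gpx5 was at 14409, below Gpx3 at 18579 and above Gpx4 at 1098. With the model SD of Gpx5 neither gap exceeded the spread.

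**Figure D4:**
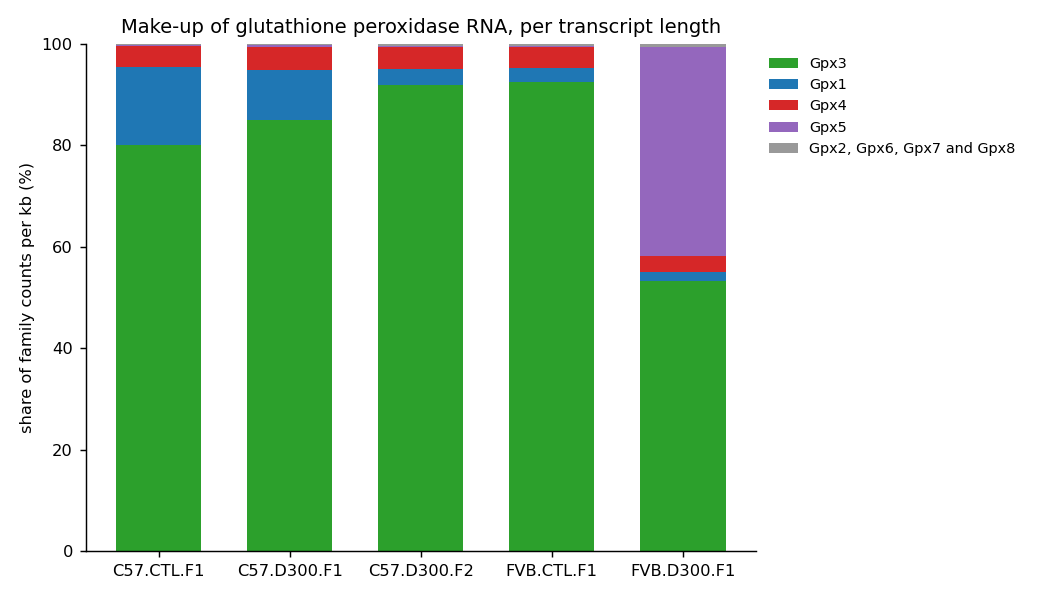
Share of each gene in the summed counts per kilobase of the 8 glutathione peroxidases, in percent, for the 5 conditions. Gpx3 forms the largest part of each bar, from 53.3% to 92.5%, and Gpx5 takes 41.3% of the bar of FVB DEHP. The model SD of Gpx5 in FVB DEHP, 80054, is larger than its count of 24121, and no error is drawn.

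**Figure D5:**
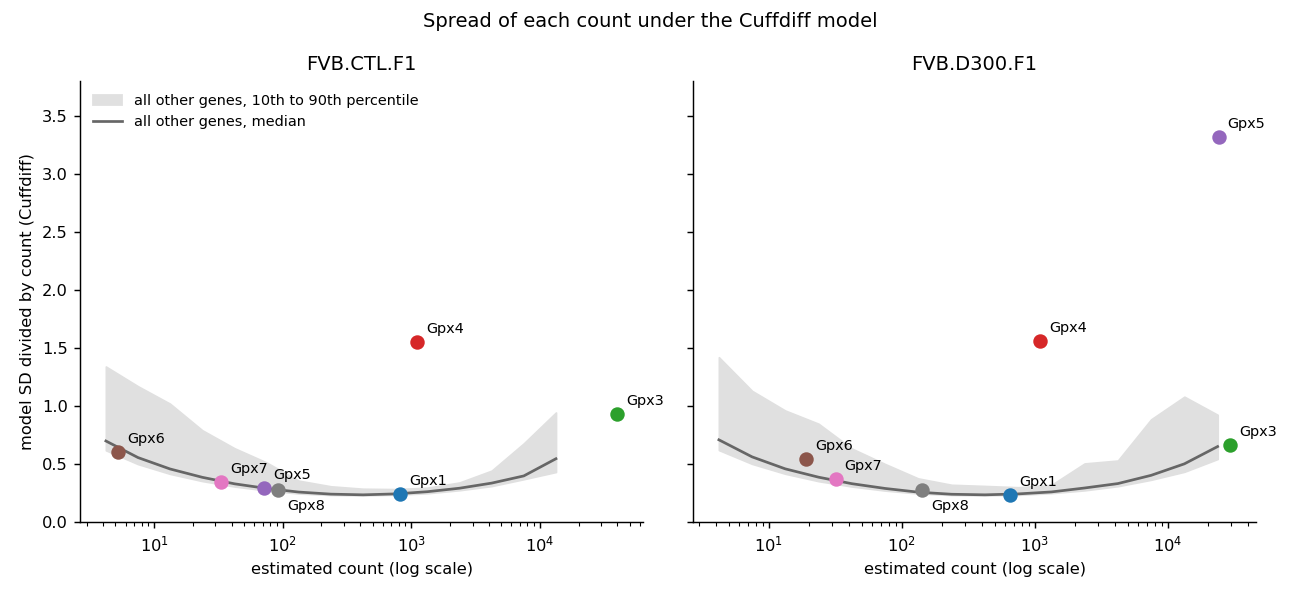
Model SD divided by the count, against the estimated count on a log axis, in FVB vehicle (left) and FVB DEHP (right). Points are the 7 members with at least 10 counts in a condition, the line is the median of all other genes in bins of count and the band their 10th to 90th percentile. Gpx4 lies above the band in both, and Gpx5 moves from 0.291 on the line to 3.32 far above it.

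Enzymes that supply or back up the glutathione peroxidases were followed in 4 lists with 49 genes in all. Where F1 sons of exposed and of vehicle mothers were compared, 0 of these genes were called, of 49 tested in C57BL/6J and 48 in FVB/N. Of all genes, 0.0357% were called higher and 0.256% lower in C57BL/6J, and 0.662% and 0.0182% in FVB/N. At such shares, 0 calls among so few genes say little about the lists. Their median log2 ratio was -0.12 in C57BL/6J and -0.06 in FVB/N. The tested gene with the log2 ratio furthest from 0 in FVB/N was Ggt1, which breaks down extracellular glutathione, with 234 counts in FVB vehicle and 513 in FVB DEHP and a log2 ratio of 1.13, in the same direction as Gpx5. In C57BL/6J it had 243 and 151 counts, a log2 ratio of -0.68. Gclc, the catalytic subunit of the first step of glutathione synthesis, had 1059 counts in FVB vehicle and 927 in FVB DEHP. Slc3a2, which carries the cystine transporter to the membrane, had 2178 and 1938.

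Between the library sets, the called pathway genes were all lower. Of 49 genes, 5 (10.2%) were called lower in FVB vehicle against C57 vehicle and 4 (8.16%) in FVB DEHP against C57 DEHP F1, close to the 8.88% and 7.67% of all genes. In C57 DEHP F2 it was 4 (8.16%) against either F1 condition, where 3.61% of all genes were lower than in C57 vehicle and 3.30% lower than in C57 DEHP F1. The medians of the 49 genes were -0.59, -0.53, -0.56 and -0.43 in the order given. Within the 15 libraries without that mark, FVB vehicle against C57 DEHP F2 called 0 of 48, with a median of 0.04. Of all genes, 0.707% were called higher there and 2.50% lower. Of the 11 other peroxide and superoxide enzymes the gene called was Cat, the peroxisomal catalase. It had 4327 counts in C57 vehicle, 5278 in C57 DEHP F1, 381 in C57 DEHP F2, 218 in FVB vehicle and 186 in FVB DEHP. Cat was thus high in the same 2 conditions as Gpx1, and its log2 ratio between the vehicle groups, -4.30, lay further from 0 than the -2.96 of Gpx1. The 6 peroxiredoxins were not called. Prdx1, the most abundant, had 4047 counts in C57 vehicle and 2308 in FVB vehicle.

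Of the 11 genes of selenoprotein synthesis and selenium supply, Sephs2 and Sepp1 were called lower in each of these 4 comparisons. Sephs2 makes the selenium donor for selenocysteine. It had 2169 counts in C57 vehicle, 1822 in C57 DEHP F1, 269 in C57 DEHP F2, 185 in FVB vehicle and 158 in FVB DEHP. Sepp1, the plasma selenium carrier made largely by the liver, had 12435, 11213, 2676, 1561 and 1408. The decoding factors were not called, with 131 counts of Secisbp2 in C57 vehicle and 160 in FVB vehicle. In the glutathione synthesis and recycling list of 15 genes the called gene was Ggt6, with 18.2 counts in C57 vehicle, 2.49 in C57 DEHP F2, 3.66 in FVB vehicle and 1.22 in FVB DEHP, partly under the floor. Of the 12 thioredoxin and glutaredoxin genes, Txndc2, a thioredoxin of the sperm tail, was called lower in FVB vehicle against C57 vehicle, at 23.0 against 110 counts.

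In C57 DEHP F1 against C57 vehicle all 9 seminal vesicle genes were called lower, against 0.256% of all genes. No glutathione peroxidase was called there. The study had singled out all of these genes but Svs1, on these samples, as lower in C57 DEHP F1. The list is therefore not independent evidence of a direction. The 9 seminal vesicle genes summed to 240702 counts in C57 vehicle and to between 696 and 2139 in the other conditions. The 9 smooth muscle and connective tissue genes summed to between 34241 and 55137. Gpx3, the most abundant member, had its lowest count of 29615 in the condition with the lowest sum of this list, FVB DEHP. Their highest values did not coincide: the list sum was highest in C57 DEHP F2, and Gpx3 in C57 vehicle, at 49995. The Gpx3 difference of -10502 counts between FVB DEHP and FVB vehicle was smaller than its model SD of 42279. Whether RNA of these tissues had a part in the Gpx3 value was not tested.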

How the data were processed

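All-RNA-seq libraries of cauda sperm (ribosomal RNA depleted, fragmented) were processed by the authors with CASAVA 1.8.2, TopHat on mm10 and Cuffdiff; the annotation release and Cuffdiff options are not given in the sources used here. The deposited signal is 1 estimated fragment count per gene and condition, scaled between libraries, with a model variance and a status; failed estimates, listed at 0, were treated as missing. The 10 further columns were not used. Log2 ratios used a pseudocount of 1, a minimum of 10 counts and a threshold of 2 over all genes. The procedure was run on simulated Poisson counts with changes larger than the threshold and no spread between libraries. That checks the code and does not show how reliable the calls are. The genes named are all members, called list genes (at most 4 a list), the most abundant genes of lists without calls, the 5 genes most alike to each member with at least 100 counts, the 3 nearest genes on each side of Gpx5 and Gpx6, and a few other list genes chosen as examples after their values were seen. The members, lists and settings were chosen with earlier results of these data known. Protein identities came from GENCODE M21 translations aligned with Biopython 1.88. Python 3.11.15, numpy 2.4.6, pandas 2.3.3 and matplotlib 3.10.9 were used. The alternatives were 3 scalings, pseudocounts of 0.1 and 10, minimum counts of 0 and 100, values under 3 set to 3, a threshold of 1, and a difference larger than its model SD.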

Additional observations from a re-analysis of the deposited data

Results flagged for a closer look

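The log2 ratio of Gpx5 with prenatal DEHP differed between strains by 8.40. It drew attention because the value was 8.38 in FVB/N and -0.02 in C57BL/6J. The study had already reported the higher level of Gpx5 in FVB DEHP from these samples, so it is not an independent observation. The C57BL/6J value has no stable sign, since it was 0.13 after scaling to equal totals and 0.04 after upper quartile scaling. The difference in counts was smaller than its model SD in both strains, at 24050 with a model SD of 80054 in FVB/N and -3.06 with a model SD of 72.5 in C57BL/6J. The difference between strains was not tested, since each condition has 1 combined value.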

How the results depend on the processing

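No paired analysis was possible because the table holds 1 combined value per condition, and for the same reason no replicate could be left out. Under 3 other scalings, pseudocounts of 0.1 and 10, minimum counts of 0 and 100, and values under 3 set to 3, the number of members called stayed the same in all 7 comparisons and for the difference between strains. With a threshold of 1 log2 unit it was 2 in FVB DEHP against FVB vehicle, where Gpx6 joined Gpx5. Of all 16471 genes tested there, 355 were called higher and 102 lower. In C57 DEHP F2 against C57 DEHP F1 it was 1 (Gpx1), with 461 genes higher and 1430 lower of 17133. In FVB vehicle against C57 vehicle it was 3 (Gpx1, Gpx5 and Gpx6), with 1282 and 3207 of 17086. FVB DEHP against C57 DEHP F1 had 3, where Gpx8 joined Gpx1 and Gpx5, with 2091 and 3457 of 17377. FVB vehicle against C57 DEHP F2 had 2 (Gpx5 and Gpx6), with 713 and 1964 of 16969. The difference between strains had 2 (Gpx5 and Gpx6), with 782 and 513 of 17556. In both comparisons between strains, a large part of all genes was called as well. When the difference also had to exceed its model SD, Gpx5 was lost, which left 0 members called in FVB DEHP against FVB vehicle and 1 in FVB DEHP against C57 DEHP F1. That alternative could not be computed for the difference between strains.

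Over the scalings and pseudocounts the log2 ratio of Gpx5 in FVB/N ranged from 8.21 to 8.41, and that of Gpx1 from -2.53 to -2.21 in C57 DEHP F2 against C57 vehicle and from -2.96 to -2.77 in FVB vehicle against C57 vehicle. Values near 0 changed sign, such as Gpx3 in C57BL/6J with DEHP, from -0.10 to 0.06. Scaling to equal totals moved the median of all genes most in C57 DEHP F2 against C57 vehicle, from -0.04 to 0.28, where it called 175 genes higher and 539 lower in place of 100 and 617. For the difference between strains it gave 141 higher and 64 lower in place of 175 and 40.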
